A study of Rattus norvegicus with 35 samples.

Results

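The 8 normal rat mammary glands titled NewN1 to NewN8 were compared with the 3 other normal glands of the series, titled X27.1N, X28.1N and Young. The members were chosen by title alone, and these 11 glands are all the normal samples among 35 arrays, the other 24 being mammary tumours. Each gland is 1 sample of total RNA on an RAE230A oligonucleotide array, which reads a gene through 1 or more probe sets and gives each probe set a brightness, its signal. The labels describe every one of the 11 as normal rat mammary gland and give no strain, age, treatment, animal, date or batch. They do not say what New, Young or the numbers in the titles mean. Of the tumours, 2 are titled X27 and X28, the numbers that X27.1N and X28.1N carry, and whether a gland and a tumour came from the same rat is not stated. NMU (N-methyl-N-nitrosourea), a DNA-alkylating compound used to raise mammary tumours in rats, is named as a keyword on all samples, and the labels do not say whether the normal glands came from treated rats. Nothing says that the glands came from separate animals, so p-values measure the spread between these samples, which may be partly technical.

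The mammary gland is a branching tree of ducts set in a fat pad. Its ducts have an inner layer of luminal cells, which are joined by tight junctions and can secrete milk, and an outer basal layer of contractile myoepithelial cells. Fibroblasts, adipocytes, vessels and immune cells lie around them, and the share of each in a piece of gland depends on age, on reproductive state and on where the piece was taken. All 11 glands carried signal for keratin and fat cell markers. In the gland where each was lowest, signals were 577 for Krt8 (luminal keratin), 361 for Krt14 (basal keratin) and 2291 for Fabp4 (a carrier of fatty acids in adipocytes). Lymphocyte genes stood out in NewN4, NewN6 and X27.1N, as given further on, and the B cell gene Cd79b lay at the floor, the lowest value used in the fit, in 5 NewN glands, X28.1N and Young.

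Of 15866 probe sets, 3354 (21.1%) differed between NewN and the other glands at a Benjamini-Hochberg adjusted p under 0.05 in limma. Of these, 1777 (11.2%) were higher and 1577 (9.94%) lower in NewN, and 5610 had an unadjusted p under 0.05. Counted by gene, with the brightest probe set standing for the gene, 2136 of 10411 (20.5%) were called, 1207 (11.6%) higher and 929 (8.92%) lower. Most differences were small: 194 probe sets (1.22%) were called and at least 2-fold higher in NewN, and 104 (0.655%) were at least 2-fold lower. The 3 other glands all lay on 1 side of the 8 NewN glands, so that the groups did not overlap, for 2548 probe sets (16.1%). By gene these were 1614 (15.5%), 888 with NewN higher (8.53%) and 726 with NewN lower (6.97%). Arrays were more alike among NewN, with correlations of 0.928 to 0.987 and a median of 0.976, than between the groups, with 0.905 to 0.959 and a median of 0.937. Correlations within the 3 others were 0.928 to 0.952.

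The direction of the calls followed brightness. In the dimmest quartile, 62 calls were higher and 506 lower in NewN, while in the brightest 829 were higher and 146 lower. The median log2 difference, NewN minus other, was -0.08 in the dimmest quartile and 0.13 in the brightest. After quantile normalization, which gives every array the same distribution, these medians were near 0 (0.00 and 0.02), and 961 genes (9.23%) were higher and 906 (8.70%) lower. Of the called probe sets 53% were higher in NewN on the deposited scale, against 25.7% with arrays centred on their 75th percentile and 74.5% when only the brighter 2 quartiles were tested. The balance of higher against lower calls thus differed between these settings, and the order of the balance with brightness remained after quantile normalization, from 94 higher and 209 lower in the dimmest quartile to 476 and 339 in the brightest. Where a difference between NewN and all 3 others is printed for a gene, the quantile-normalized adjusted p is added if it lies on the other side of 0.05.

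**Figure D1:**
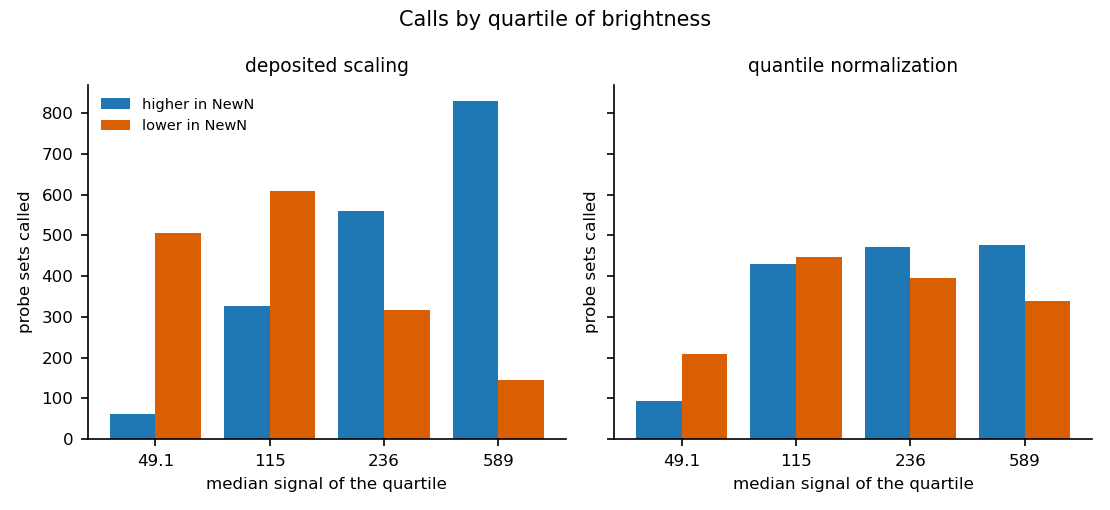
Calls of probe sets as higher (blue) or lower (orange) in the 8 NewN glands than in the 3 other normal glands, in 4 quartiles of brightness named by their median signal, for the deposited scaling (left) and after quantile normalization (right). On the deposited scale calls run from 62 higher and 506 lower in the dimmest quartile to 829 higher and 146 lower in the brightest, and after quantile normalization from 94 and 209 to 476 and 339.

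Control transcripts added to every sample differed between the groups as well. bioB, bioC and bioD (bacterial biotin synthesis genes) and cre (a phage recombinase) are added to the hybridisation mixture in fixed amounts. The scaling behind the deposited values is not stated, and a scaling of whole arrays would move these signals too. The bioB signal lay between 214 (NewN5) and 303 (NewN4) in NewN, with values of 590, 501 and 464 in X27.1N, X28.1N and Young. Means were 273 ± 28.8 (SD, n = 8) and 518 ± 64.9 (SD, n = 3). The groups did not overlap for any of the 4 controls. Mean signals were 514 and 833 for bioC, 1672 and 2745 for bioD, and 6546 and 8722 for cre. The 10th percentile of signal was lower in NewN (37.0 ± 1.89 against 41.5 ± 0.791, SD) and the 90th percentile was higher (737 ± 19.9 against 667 ± 27.99, SD), again without overlap. For each of these 6 measures and for the share of probe sets at the floor (11.91% and 10.03%) the two-sided exact permutation p was 0.00606, the smallest that the 165 splits of 11 arrays allow, and 0.00952 after adjustment over 11 measures. Without X27.1N the adjusted exact permutation p for the 10th percentile was above 0.05. RNA quality was read from control probe sets near both ends of long transcripts, where degraded RNA gives a higher 3' to 5' ratio. For Gapdh it was 1.17 ± 0.125 in NewN and 1.03 ± 0.0590 in the others (SD, exact permutation p = 0.0848), and those of Actb and Hk1 were 1.34 against 1.36 and 1.62 against 1.64. Control signal, signal range and the groups of glands run in parallel here, and for the calls as a whole they cannot be told apart.

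**Figure D2:**
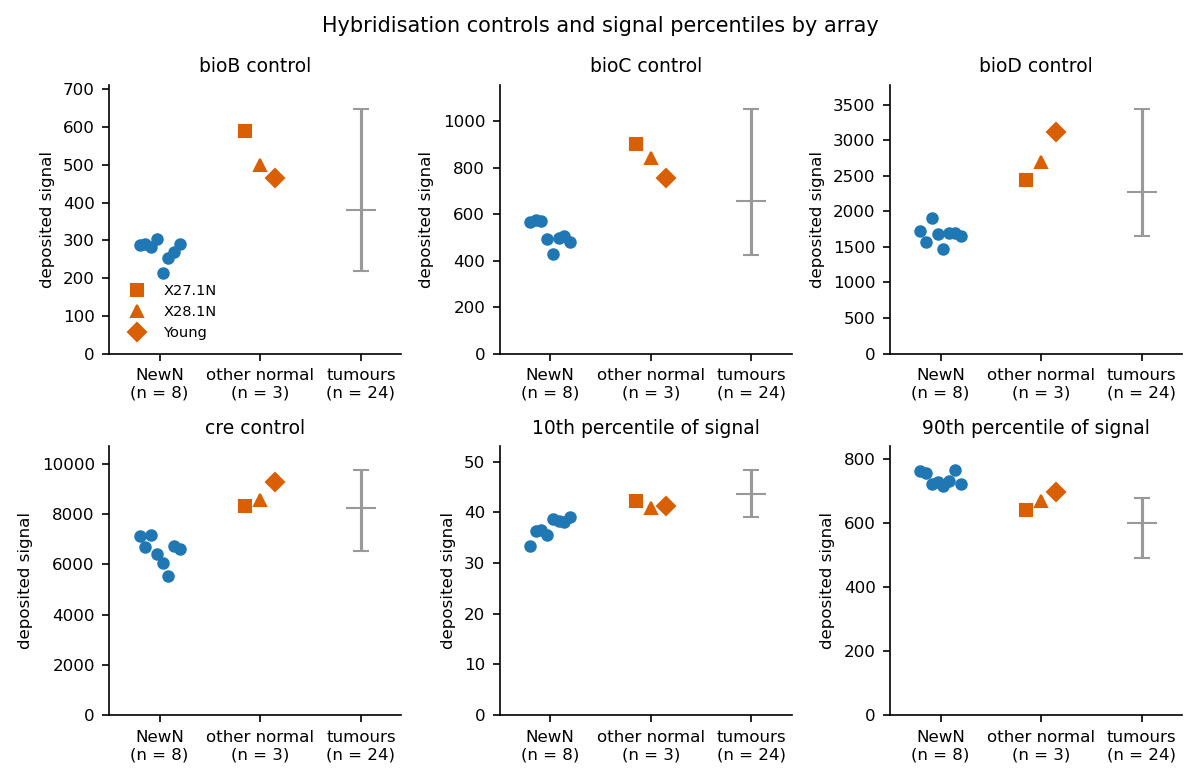
Deposited signal of the 4 hybridisation controls (geometric mean of their probe sets) and the 10th and 90th percentile of signal on each array: 8 NewN glands (blue circles), X27.1N, X28.1N and Young (orange square, triangle and diamond), and the median with the lowest and highest of 24 tumours (grey). In all 6 panels the 3 other normal glands lie apart from the 8 NewN glands; for bioB they lie between 464 and 590 and the NewN glands between 214 and 303.

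Genes of the luminal epithelium were higher in NewN. Of 23 measured members of the luminal list, 14 were called higher and 0 lower, beside 11.6% and 8.92% of all genes. The median log2 difference was 1.08, beside 0.00 over all genes. The largest was that of Kit (a receptor tyrosine kinase of luminal progenitors, also on mast cells). Its signal ran from 307 (NewN6) through a median of 531 to 709 (NewN8) in NewN, and was 134 in X27.1N, 149 in X28.1N and 76.1 in Young. No NewN gland came as low as any of the others, and the log2 difference was 2.17 (SE 0.25, adjusted p = 0.000516). The mast cell proteases Cma1 and Cpa3 went the other way without passing (log2 difference -0.34 and -0.27). In bulk tissue fewer cells of a type and less RNA per cell cannot be told apart.

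Claudins, the proteins that seal tight junctions, followed. Cldn4 ranged from 221 (NewN6) to 493 (NewN3) in NewN, median 378, against 115, 107 and 69.8 in X27.1N, X28.1N and Young. Cldn7 ranged from 270 (NewN6) to 545 (NewN4), median 449, against 241, 64.2 and 104. Both were without overlap between the groups, though for Cldn7 the gland X27.1N came close to NewN6. Their log2 differences were 1.95 (SE 0.23, adjusted p = 0.000608) and 1.84 (SE 0.37, adjusted p = 0.00709), and Cldn3 differed by 1.17 with NewN6 inside the range of the others. The upstream sequence of Cldn7 is shown because it is that of the called luminal gene with the largest difference that holds the E2 box (letters CAGGTG or, on the other strand, CACCTG), a sequence bound by repressors of the Snail and Zeb families in epithelial genes. It covers the 250 bases before the RefSeq transcription start, GRCr8 chr10:55188420-55188669, plus strand, and the capitals mark the 4 matches, at -186, -147, -28 and -17.

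Cldn7: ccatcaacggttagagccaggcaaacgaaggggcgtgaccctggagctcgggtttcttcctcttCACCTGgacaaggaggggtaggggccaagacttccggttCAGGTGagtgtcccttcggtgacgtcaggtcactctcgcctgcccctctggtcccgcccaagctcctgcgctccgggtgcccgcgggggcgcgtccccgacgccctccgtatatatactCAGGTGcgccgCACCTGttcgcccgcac

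Of the 14 luminal genes called, 10 have an entry in the promoter table and 7 of these hold an E2 box in this window (Cldn7, Muc1, Epcam, Spint2, Cldn3, Prom1 and Ocln), as do 15.6% of 27457 rat promoters. Cldn4 has no entry. These letters are a description of the sequence and no measurement of binding.

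Other luminal genes had the same direction. Gata3 (the transcription factor of luminal fate) was 186 (NewN6) to 381 (NewN3) in NewN, median 309, and 131, 84.3 and 108 in the other 3 glands, a log2 difference of 1.51 (SE 0.20, adjusted p = 0.000981). Epcam (an epithelial adhesion molecule) was 1284 to 2460, median 2114, and 1126, 673 and 750, a difference of 1.31. For both, every NewN gland lay above every other gland. Cdh1 (E-cadherin), Muc1 (an apical mucin), Spint2 (a protease inhibitor of epithelia) and Ocln (occludin) were also apart, with log2 differences of 1.31, 1.47, 1.19 and 0.89. Ehf (an epithelial transcription factor) was at the floor in all 3 other glands and was at least 1.86-fold higher in NewN. The keratins overlapped between the groups. Krt18 was 597 (NewN6) to 1202 (NewN5), median 1086, against 730, 370 and 354, and its difference of 1.17 (SE 0.25, adjusted p = 0.0106) was not called without X28.1N or without Young. Krt8 (log2 difference 0.75, adjusted p = 0.0553) did not pass, and Krt19 passed at 1.19 with NewN6 inside the range of the others (adjusted p = 0.0560 after quantile normalization). The hormone receptor genes Esr1, Pgr and Prlr did not pass (-0.11, 0.51 and 0.65), nor did Foxa1, a pioneer factor of hormone-sensing luminal cells, with -0.47.

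Most listed genes of the basal layer had the same direction. Of 15 measured genes of the basal and myoepithelial list, 8 were called higher and 1 lower, beside 11.6% and 8.92% of all genes, with a median log2 difference of 0.92. With the Gapdh 3' to 5' ratio as a covariate 5 were higher, with Young as the sole other gland 5, and in a fit of all 35 arrays 3. Myh11 (smooth muscle myosin) was 779 (NewN6) to 1847 (NewN1) in NewN, median 1293, and 463, 567 and 445 in X27.1N, X28.1N and Young. Acta2 (smooth muscle actin) was 1956 (NewN6) to 3377 (NewN1), median 2754, and 1362, 917 and 1180. For both contractile genes the groups were apart, with log2 differences of 1.41 (SE 0.21, adjusted p = 0.00165) and 1.29 (SE 0.17, adjusted p = 0.00112). Which cells of the gland carried these smooth muscle genes was not tested. Integrin genes Itga6 and Itgb4, which anchor basal cells to the basement membrane, were higher by 1.11 and 0.92, and Lama3 (a laminin chain of that membrane) by 1.29. Krt5 (basal keratin) was higher by 1.30 (SE 0.33, adjusted p = 0.0206, and 0.0505 after quantile normalization), with NewN6 at 840 below X27.1N at 973, and was not called without X28.1N or without Young. The exception was Cdh3 (P-cadherin), which fell by 0.65 and stood highest in Young (439, against 160 to 218 in NewN). Its call was lost without X27.1N, without Young and without any of 6 NewN glands. Krt14 and Oxtr (the oxytocin receptor) did not pass (1.004 and 0.90).

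**Figure D3:**
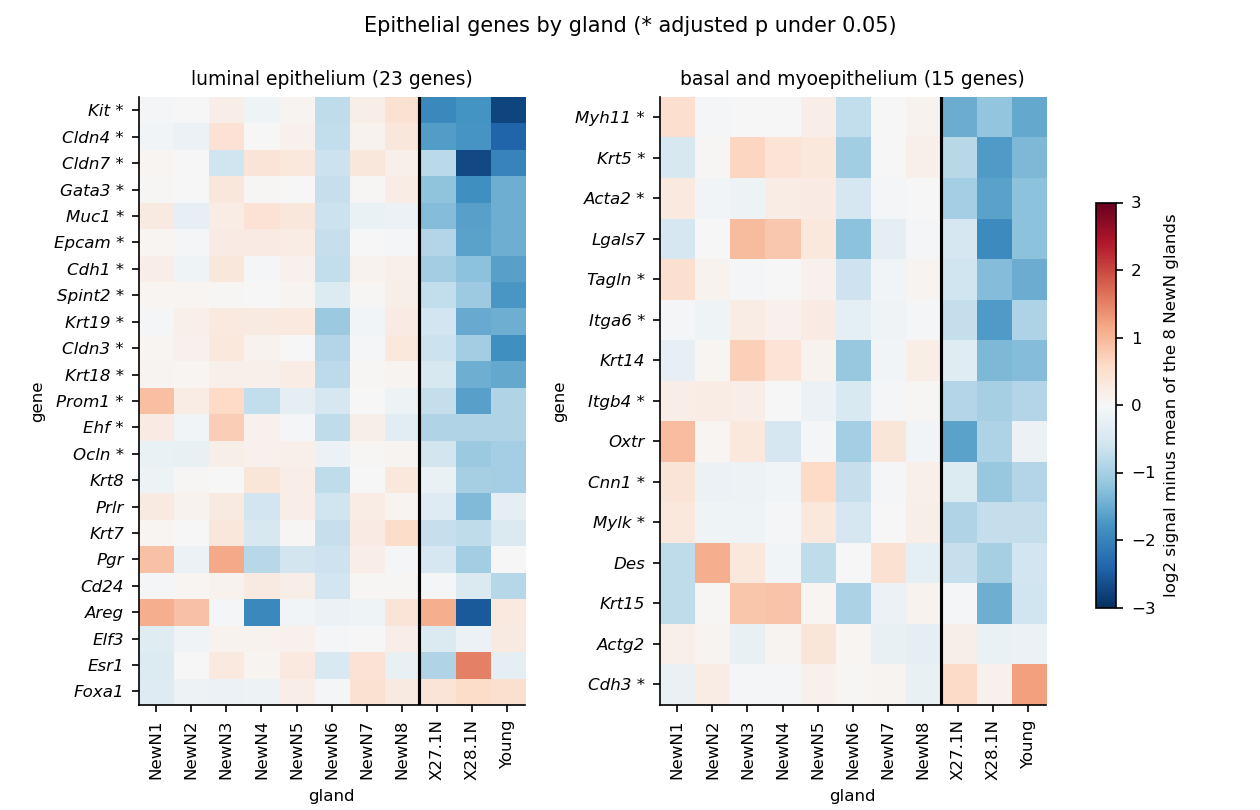
Log2 signal minus the mean of the 8 NewN glands for 23 luminal genes (left) and 15 basal and myoepithelial genes (right), 1 column a gland, blue below and red above that mean; a star marks an adjusted p under 0.05 and the black line parts NewN from the other glands. X27.1N, X28.1N and Young are below the NewN mean for most genes, NewN6 is the lowest NewN gland for many, and Esr1, Foxa1 and Cdh3 do not have that pattern.

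The depth of the epithelial difference varied among glands. Averaged over the luminal list, glands stood below the NewN mean by a log2 value of -0.66 (X27.1N), -1.15 (X28.1N) and -1.06 (Young), while NewN6 stood at -0.59 and the other NewN glands between -0.10 and 0.24. For the basal list the values were -0.62, -1.14 and -0.79 in the 3 others and -0.61 in NewN6. The list means of NewN6 and X27.1N thus differed little. The luminal count of 14 became 9 without Young, 17 without NewN6, 10 with the Gapdh ratio as a covariate and 5 in a fit of all 35 arrays. It was 18 without NewN4, NewN6 and X27.1N, the 3 glands with high lymphocyte genes, and the luminal median difference was then 1.47. Median differences were 0.90 against the pair X27.1N and X28.1N and 1.03 against Young. No luminal or basal gene was called between the pair and Young, a comparison of 2 arrays with 1 in which 98 of all genes (0.941%) were called.

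Among the 15 largest differences of non-overlapping genes, several outside those lists were found, some of them known from epithelium. Which cells of the gland carried them was not tested. Sox10 (a transcription factor of neural crest and of mammary progenitor and basal cells) was 247 (NewN6) to 688 (NewN5) in NewN, median 574, and 120, 76.9 and 52.7 in the other 3 glands. The groups were far apart, and the log2 difference was 2.65 (SE 0.32, adjusted p = 0.000645). Of 18 nerve and Schwann cell genes, 2 were called higher and 2 lower, 22.2% beside 20.5% of all genes. Their differences were 5 positive and 13 negative. Prss8 (prostasin, a protease of epithelial surfaces) was 174 (NewN6) to 456 (NewN5), median 407, and 119, 85.7 and 52.0, a difference of 2.16 (SE 0.31, adjusted p = 0.0016). Trim29 and Anxa8, expressed in basal epithelium, differed by 1.72 and 1.89. Fgfr3 (a receptor for fibroblast growth factors) was 96.5 to 181 in NewN and at or near the floor of 41.6 in the others (37.2, 44.7 and 24.3), so that the fitted difference of 1.68 is limited by the floor. Tgfb3 (a growth factor of the TGF-beta family) was 666 (NewN6) to 1337 (NewN4), median 1256, and 403, 362 and 233, a difference of 1.75 (SE 0.25, adjusted p = 0.00154). Lbp (lipopolysaccharide binding protein) was higher by 1.68, beside Cp (ceruloplasmin, 1.58, called with each of its 3 probe sets) and Lcn2 (lipocalin, an iron-sequestering defence protein, 1.38). These 3 secreted proteins of the acute phase were lowest in Young (453, 369 and 753) and in NewN6 within the NewN glands. Of 15 measured genes of the acute phase and complement list, 3 were called higher and 1 lower, beside 11.6% and 8.92% of all genes. Its differences were 7 positive and 8 negative, with a median of -0.04, and -0.17 after quantile normalization.

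The largest difference of all was that of LOC102552398, an uncharacterized locus, with signals from 185 (NewN1) to 819 (NewN4) and a median of 512 in NewN. The others had 44.0, 21.7 and 25.7. X28.1N and Young lay at the floor, so the fitted difference of 3.49 (SE 0.43, adjusted p = 0.000665) is limited by it. Scaf1 (a nuclear factor that binds RNA polymerase) was 84.5 to 171 in NewN and at the floor in all 3 others (1.22, 1 and 9.09), at least 3.19-fold higher in NewN. Klhl21 (an adaptor of a ubiquitin ligase) was 116 to 178 against 39.8, 51.4 and 32.8, a difference of 1.77 (SE 0.14, adjusted p = 8.02e-05), which the floor limits, as 2 of the 3 others lay at it. Its NewN6 value of 134 lay within the range of the other NewN glands, unlike that of the epithelial genes above.

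Receptors and growth factors were mixed. In either direction 25.8% of the receptors and 32.4% of the growth factors and binding proteins were called. Of all genes 20.5% were called, 11.6% higher and 8.92% lower. Of 31 receptor genes, 6 were higher and 2 lower, with Met (hepatocyte growth factor receptor, 1.51), Erbb2 (0.90), Igf1r (0.83) and Erbb3 (0.76) among the higher. Erbb2 was not called without X28.1N, and without Young or X28.1N the receptors numbered 5 (5 higher, 0 lower and 4 higher, 1 lower). Of 37 growth factors and binding proteins, 7 were higher and 5 lower. These counts rested on single glands: 2 and 1 without Young, 5 and 0 without X28.1N, 4 and 2 without X27.1N, and 2 and 0 with the Gapdh ratio as a covariate. Inhbb (an activin and inhibin subunit), Sfrp2 (a secreted Wnt inhibitor) and Igfbp2 were higher by 1.35, 1.16 and 1.09, and Tnfsf11 (RANKL, the paracrine signal of progesterone in the gland) and Fgf10 (a stromal factor for duct growth) were lower (-0.83 and -0.73, Tnfsf11 at adjusted p = 0.0638 after quantile normalization). Sfrp2 was 499 to 647 in NewN and 308, 260 and 202 in the others, and its groups were apart. Inhbb was not called without X27.1N or without Young, and Igfbp2 not without X28.1N or without Young.

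Values of the tumours stand beside those of the glands without a test. The tumour median was 184 for Kit, 532 for Cldn4, 597 for Cldn7, 232 for Gata3, 2787 for Epcam, 328 for Sox10 and 409 for Prss8. For the contractile genes it was 135 for Myh11 and 1326 for Acta2.

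Genes of mitosis and DNA replication were lower in NewN, mainly through 2 of the 3 other glands. Of 31 measured, 0 were higher and 10 lower, beside 11.6% and 8.92% of all genes, and the median log2 difference was -0.57. Averaged over the list, X27.1N stood 1.06 and Young 0.98 above the NewN mean on the log2 scale, while X28.1N stood at -0.16. Among NewN, NewN6 (0.46) and NewN4 (0.39) were highest. The glands X27.1N, NewN6 and NewN4 also stood highest for T and NK cell genes (1.26, 1.85 and 1.07), while Young did not (-0.44). Without those 3 glands 6 mitosis genes were lower, and with the lymphocyte mean as a covariate 14. The count of 10 depended on these glands: it was 5 without X27.1N, 5 without Young and 19 without X28.1N, and 4 with the Gapdh 3' to 5' ratio as a covariate.

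Top2a (topoisomerase II alpha, which untangles replicated DNA) was 68.3 (NewN7) to 138 (NewN4) in NewN, median 98.0. It was 284 in X27.1N and 284 in Young but 117 in X28.1N, inside the NewN range. Its log2 difference was -1.11 (SE 0.29, adjusted p = 0.0244), and it was not called without X27.1N or without Young. Kif20a (a kinesin of cytokinesis) was 19.1 to 65.3 in NewN and 139, 36.3 and 155 in X27.1N, X28.1N and Young. Its difference was -1.07 (SE 0.34, adjusted p = 0.0499, and 0.0654 after quantile normalization). Its X28.1N value and its lowest NewN value lay under the floor of 41.6, so the fitted difference is limited by the floor. Its call was lost in 10 of 11 fits that left out 1 gland, all but that without X28.1N. The proliferation marker Mki67 had the same profile (226, 60.8 and 271, against 50.2 to 88.5) and did not pass (-1.19, adjusted p = 0.0565). Ube2c and Cdk1 did not pass either (-1.54 and -1.37).

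A smaller set was high in all 3 other glands. Tk1 (thymidine kinase) was 99.7 (NewN7) to 186 (NewN5) in NewN, median 158, and 316, 280 and 303. The groups were apart, the difference was -0.97 (SE 0.16, adjusted p = 0.00296), and the second probe set of the gene was lower as well (-0.66). Plk1 (a mitotic kinase), Cdc20 (an activator of the anaphase promoting complex), Tyms (thymidylate synthase) and Kif2c (a microtubule depolymerase) were also apart, at -0.76, -0.56, -0.54 and -0.47, though 5 of the 8 NewN values of Tyms lie at the floor. In the G1 control list, Ccnd1 (cyclin D1) was 479 (NewN4) to 755 (NewN8) in NewN, median 651, and 1094, 974 and 1325, a difference of -0.82 (SE 0.13, adjusted p = 0.00223). Each of its 3 probe sets was called lower (-1.19, -0.82 and -0.73). Tumour medians were 252 for Top2a, 160 for Kif20a, 341 for Tk1 and 2585 for Ccnd1.

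The upstream sequences of Top2a and Kif20a, the called genes of the list with the largest differences, are shown for the motifs of cell cycle promoters. The CCAAT box (letters CCAAT or ATTGG) is bound by nuclear factor Y, and the CHR (letters TTTGAA or TTCAAA) by cell cycle repressor and activator complexes. Both windows are the 250 bases before the RefSeq start in GRCr8, chr10:84473094-84473343 on the minus strand for Top2a and chr18:26504172-26504421 on the plus strand for Kif20a. Capitals mark the CCAAT boxes, 4 in Top2a and 3 in Kif20a, and the CHR of Top2a at -22.

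Top2a: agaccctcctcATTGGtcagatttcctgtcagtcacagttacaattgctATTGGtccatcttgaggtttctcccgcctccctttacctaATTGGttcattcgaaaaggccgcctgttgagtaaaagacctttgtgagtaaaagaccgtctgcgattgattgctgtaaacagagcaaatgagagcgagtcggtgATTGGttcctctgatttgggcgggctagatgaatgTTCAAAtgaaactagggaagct

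Kif20a: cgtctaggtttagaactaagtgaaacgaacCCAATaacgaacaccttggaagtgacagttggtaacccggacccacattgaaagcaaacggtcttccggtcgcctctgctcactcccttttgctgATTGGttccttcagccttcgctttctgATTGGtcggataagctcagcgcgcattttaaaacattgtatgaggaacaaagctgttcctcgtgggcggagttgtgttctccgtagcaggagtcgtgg

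All 10 called mitosis genes have a promoter entry. A CCAAT box was found in 6 of them (Top2a, Kif20a, Birc5, Plk1, Cdc20 and Hmmr), beside 34.3% of all 27457 promoters, and a CHR in 5 (Top2a, Birc5, Mcm2, Cdc20 and Hmmr), beside 4402 of the 27457. No match says only that these letters are not in the window, as for Tk1, which has neither.

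**Figure D4:**
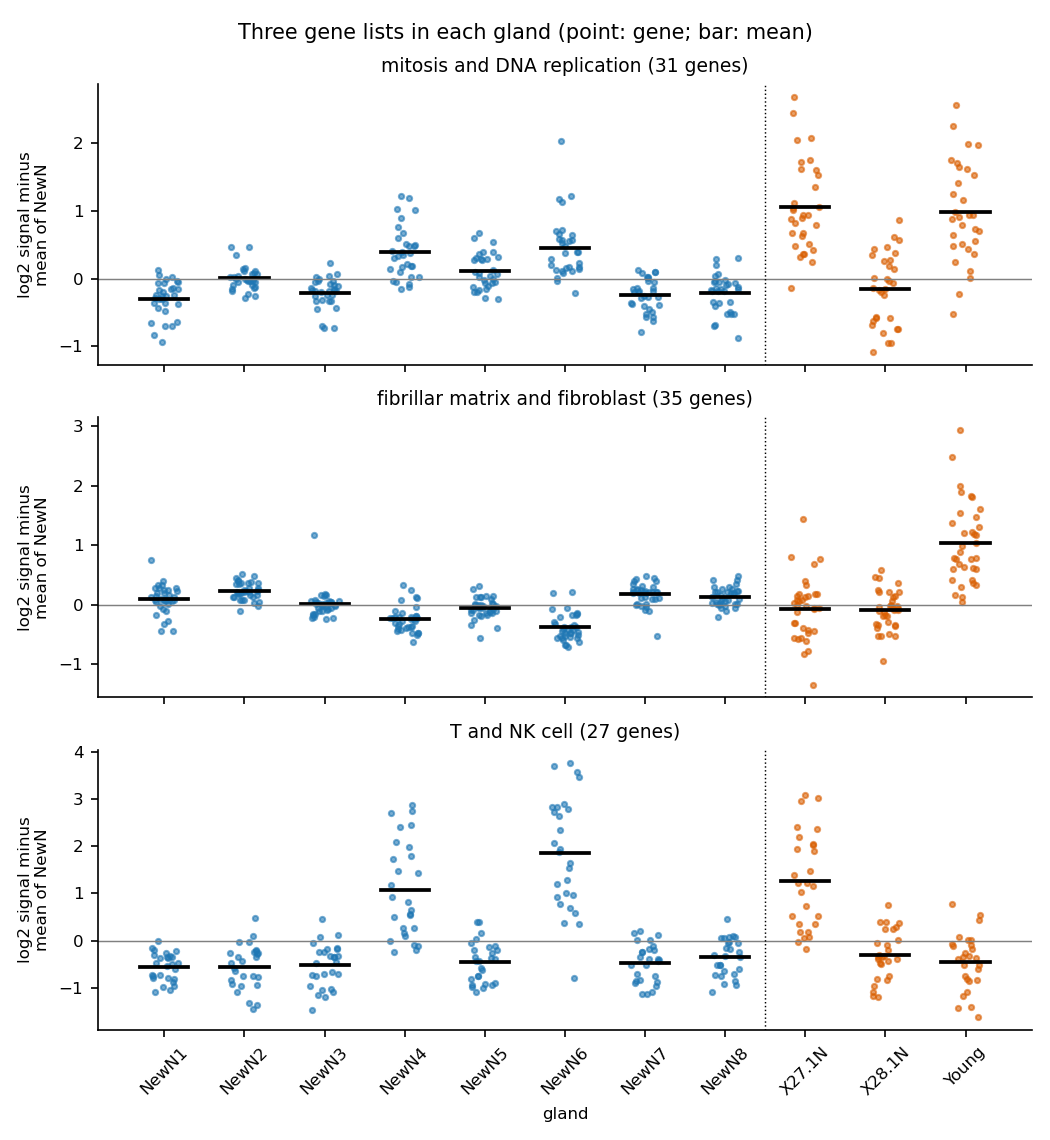
Log2 signal minus the mean of the 8 NewN glands for every measured gene (points) of the mitosis and DNA replication list (31 genes), the fibrillar matrix and fibroblast list (35 genes) and the T and NK cell list (27 genes) in each gland, with the list mean as a bar; NewN in blue, other glands in orange. The mitosis mean is high in X27.1N (1.06) and Young (0.98), the matrix mean in Young (1.04), and the T and NK cell mean in NewN6 (1.85), X27.1N (1.26) and NewN4 (1.07).

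The glands Young and X27.1N with X28.1N were then set apart in a fit with 3 groups. By gene, 921 (8.85%) were higher and 638 (6.13%) lower in NewN than in the pair, and 991 (9.52%) differed between NewN and Young, with the lone Young array assumed to vary like the others. Called in the same direction in both were 364 genes higher and 175 lower in NewN. These 2 comparisons share the NewN arrays.

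The array Young carried more signal for genes of fibrous matrix than the other 10. As Young is 1 array, every call against it compares that array with the rest under the assumed spread, and says nothing of other glands. Of 35 fibrillar matrix and fibroblast genes, 18 were lower in NewN than in Young and 0 higher, and all 35 differences were negative, with a median of -0.89. Against the pair, 1 was higher in NewN and 0 lower. Col1a1 (collagen I) was 3659 (NewN6) to 5517 (NewN7) in NewN, median 4961, and 3850 and 3383 in X27.1N and X28.1N, against 9769 in Young. Young alone stood outside the NewN range on the high side, and the NewN minus Young difference was -1.04 (adjusted p = 0.00964). Eln (elastin) was 503 to 869 in NewN, 1053 and 641 in the pair and 3670 in Young (-2.48, adjusted p = 0.00294). Lox (lysyl oxidase, which cross-links both) was 198 to 459, then 466 and 224, then 2097 (-2.94, adjusted p = 0.00812). Outside the list, Pcolce (an enhancer of collagen processing) had 3529 in Young beside 1003 and 1059 in the pair. P4ha2 (a collagen prolyl hydroxylase), also outside it, had 1199 beside 363 and 497. In limma P4ha2 was lower in NewN than in the 3 others taken as a group (-0.95, adjusted p = 0.0414), though X27.1N lay below NewN2 (373). That call was lost in 10 of 11 fits that left out 1 gland. Between the pair and Young, 5 of the 35 matrix genes were called, all higher in Young. In the comparison of NewN with all 3 others taken as a group, 1 of the 35 was called, Tnc (tenascin C, -1.06, adjusted p = 0.0415, and 0.0571 after quantile normalization), which was lost in 10 of 11 fits that left out 1 gland.

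The genes farthest apart between Young and the pair included some near the minimum in most other normal glands. Scn10a (a sodium channel of sensory neurons) had 831 in Young, at most 65.7 (NewN7) in NewN and the deposited minimum of 1 in X27.1N and X28.1N, and Ugt2a1 (a glucuronosyltransferase of olfactory epithelium) had 447, at most 69.1 and 1. In the tumours the median was 1 for both genes, and the highest signal was 652 for Scn10a and 66.7 for Ugt2a1. Nrk (a kinase of embryonic tissue) had 843 in Young, 48.5 to 82.3 in NewN and 155 and 50.1 in the pair. Meg3, an imprinted noncoding RNA, had 256 in Young, 61.1 to 87.03 in NewN and 79.2 and 54.2 in the pair. Srcin1 and Amph, by contrast, were low in Young (47.3 and 27.3) and within 176 to 433 in all 10 other glands. All 6 were called between Young and each of the other groups. They rest on 1 array.

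Of the 15 largest falls among genes whose groups did not overlap, several, and that of Gosr1 as the largest, were those of probe sets whose partners on the same gene were not called. Gosr1 (a SNARE protein of Golgi transport) was 94.6 (NewN5) to 124 (NewN8) in NewN, median 117, and 485, 547 and 589 in X27.1N, X28.1N and Young. The gap between the groups was wide beside the spread within them, with a log2 difference of -2.24 (SE 0.09, adjusted p = 3.35e-06). The second probe set of Gosr1 differed by 0.25 and was not called. Dync1li1 (a light intermediate chain of dynein) was 383 to 496 in NewN, median 430, and 1342, 1298 and 1249 (-1.59, SE 0.07, adjusted p = 4.61e-06), and its second probe set differed by 0.19 and was not called. Ythdf2 (a reader of methylated adenosine in RNA) was 494 to 669, median 507, and 1639, 1400 and 1325 (-1.45, SE 0.10, adjusted p = 3.41e-05), its second probe set 0.34 and not called. For Rab14 (a GTPase of endosomes) the probe set used differed by -1.30 and the 3 others by 0.10, 0.17 and 0.37, none of them called. Id2 (an inhibitor of differentiation factors) had -1.20 and 0.00, and Yaf2 -1.34 and 0.13, again with 1 of 2 probe sets called.

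**Figure D5:**
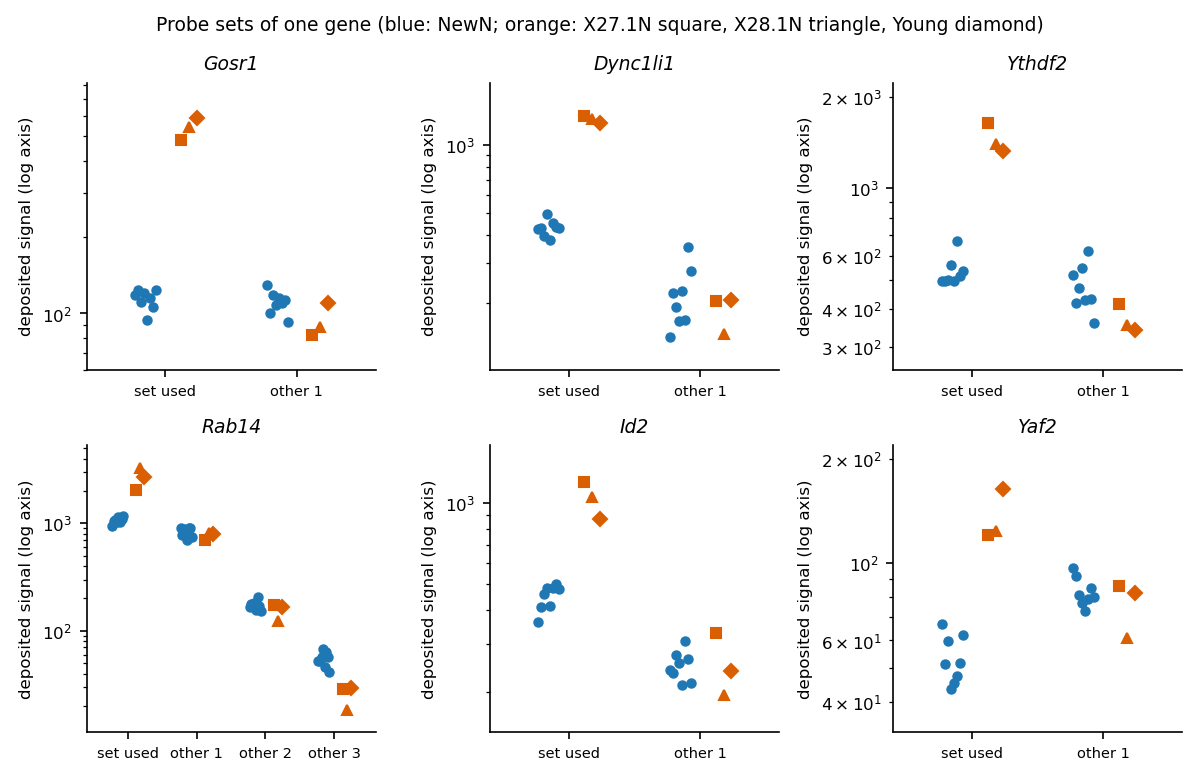
Deposited signal (log axis) of every probe set of 6 genes in the 8 NewN glands (blue circles) and in X27.1N, X28.1N and Young (orange square, triangle and diamond); the set used for the gene is at the left of each panel. The set used lies apart between the groups in every panel, while the remaining sets of the gene overlap or differ little; for Gosr1 the differences are -2.24 and 0.25.

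Counted over all probe sets, 91 were called, at least 2-fold lower in NewN and without overlap between the groups. Of these, 26 have 1 symbol and belong to genes with several probe sets. For 76.9% of these 26, no partner probe set was called in the same direction. The figure for higher probe sets was 57.4% of 54. A lone call was common over the array. Of 1868 genes with several probe sets, 1089 had none called, 594 had exactly 1 called and 45 had called probe sets in both directions. Where on the transcript each probe set lies was not used here. Tumour medians for the probe sets used were 365 for Gosr1, 1190 for Dync1li1, 1534 for Ythdf2, 2418 for Rab14 and 1233 for Id2. Among genes with 1 probe set, Aspn (asporin, a small matrix proteoglycan) was 79.6 (NewN6) to 221 (NewN1) in NewN, median 137, and 291, 277 and 872, highest in Young. Its difference of -1.67 (SE 0.44, adjusted p = 0.0241) was lost without Young. Proc (protein C, an inhibitor of clotting) was 71.1 to 139, median 108, and 289, 299 and 319 (-1.52, SE 0.17, adjusted p = 0.000416). Nek1 (a kinase of cilia and DNA repair) was 65.4 to 82.9 in NewN, median 72.5, and 160, 177 and 169 (-1.20, SE 0.07, adjusted p = 2.49e-05). Map3k12 (a kinase of the neuronal stress response) was 291 to 363, median 339, and 817, 877 and 716 (-1.26, SE 0.08, adjusted p = 2.49e-05). The groups were apart for all 4 genes, and none has a partner probe set to compare.

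Hba-a3 (an alpha globin gene) was 218 (NewN5) to 749 (NewN7), median 488, and 1108, 1180 and 1770. The groups were apart (-1.54, SE 0.34, adjusted p = 0.0115), and the call was lost without Young. Of 8 genes on the erythrocyte list, 2 were lower (Alas2, the first enzyme of haem synthesis in red cells, -0.54, and Car1, a carbonic anhydrase, -0.72, lost without X27.1N or without X28.1N) and 0 higher, with 1 lower without X28.1N, and Hbb (beta globin) did not pass (-0.65). In either direction 25% of the erythrocyte list was called, beside 20.5% of all genes. Globin families share sequence, so the signal of a probe set may mix near-identical copies. Hmox1 (haem oxygenase) was 237 to 398 in NewN and 569, 716 and 599 in the others (-0.95, SE 0.15, adjusted p = 0.00214). Plvap (a protein of endothelial fenestrae) was 589 to 1036 in NewN and 1370, 1451 and 1929 (-1.04, SE 0.16, adjusted p = 0.0023). Of 23 vessel genes, 1 was higher (Podxl, a sialomucin, 0.89, adjusted p = 0.0731 after quantile normalization) and 2 were lower (Plvap and Flt1), a share near the 8.92% of all genes. Among 11 fits that left out 1 gland, the call of Flt1 was lost in 8, that of Podxl in 9 and that of Plvap in 0. The markers Pecam1 and Kdr did not pass (-0.45 and -0.21, Pecam1 at adjusted p = 0.0307 after quantile normalization). Of 18 mast cell and granulocyte genes, 1 was higher (Kit) and 2 were lower, again near the 8.92% of all genes. Mcpt1 and Alox15 were lower by log2 values of -0.68 and -0.95, and the call of Alox15 was lost when any of the 3 other glands was left out.

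Few fat genes were called. Plin1 (perilipin of the fat droplet) was 422 (NewN6) to 1430 (NewN2) in NewN, median 1144, and 151, 612 and 371. Its difference of 1.64 (SE 0.46, adjusted p = 0.0303) was lost in 6 of 11 fits that left out 1 gland, among them those without X27.1N and without Young. Fabp4 was 2959 to 5574 and 2291, 6273 and 4931 (0.04, adjusted p = 0.982). Of 23 adipocyte genes, 2 were higher and 0 lower, a called share of 8.7% beside 20.5% of all genes. Of their differences 18 were positive and 5 negative, and the median was 0.10. Without X27.1N 0 were called and the median was -0.23.

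Some genes of folding and translation were higher by small amounts. Over all genes 11.6% were called higher and 8.92% lower, and after quantile normalization 9.23% and 8.70%. Of 28 heat shock and chaperone genes, 9 were higher and 0 lower, with a median log2 difference of 0.23. After quantile normalization the counts were 4 and 1. Without X28.1N or without Young 5 were higher, and with the Gapdh ratio as a covariate 3. Hsp90ab1 (a cytosolic chaperone) was 3266 to 3549 in NewN, median 3385, and 2350, 1788 and 2015. The NewN glands were tightly grouped, the groups were apart, and the difference of 0.74 (SE 0.07, adjusted p = 0.000196) was matched by its second probe set (0.91). Of 18 translation factors, 6 were higher and 0 lower (Eif4b 0.66, Ncl 0.60 and Eef1d 0.60), also after quantile normalization. Among 33 ribosomal protein genes 6 were higher and 3 lower, and 4 and 1 after quantile normalization. Their median of 0.05 turned to -0.04 with arrays centred on the 75th percentile. These lists lie in the brighter part of the array, where calls ran towards NewN. Of 19 glycolysis genes, 6 were higher and 0 lower (1 lower with 75th percentile centring), led by Aldoc (1.67), whose values were 227 (NewN6) to 630 in NewN and 214, 136 and 87.4 in the others.

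Few or no genes of the lymphocyte, skeletal muscle and milk lists were called, which does not say that the groups were alike. In limma, T and NK cell genes had 0 of 27 called, also after quantile normalization, and 2 with an unadjusted p under 0.05. B and plasma cell genes had 0 of 5 called and 0 with an unadjusted p under 0.05. Cd3g (a chain of the T cell receptor complex) had 1639 in NewN6 and 1077 in X27.1N, against a NewN median of 73.9, 59.9 in X28.1N and 51.8 in Young. Cd79b (a chain of the B cell receptor) had 1111 in NewN6 and 1013 in X27.1N, with a NewN median of 16.4. Both genes were thus high in glands of both groups. Skeletal muscle genes had 1 higher and 1 lower of 39 (5.13%, beside 20.5% of all genes). Acta1 (skeletal actin) spanned 47.5 (NewN6) to 4427 (NewN2) within NewN and was 93.7, 32.2 and 908 in the others (2.50, SE 1.44, adjusted p = 0.247). Milk genes had 0 of 9 called in limma and 2 with an unadjusted p under 0.05. Differences of T and NK cell genes were 6 positive and 21 negative (median -0.21). Those of skeletal muscle genes were 31 positive and 8 negative (0.41), and those of milk genes 7 and 2 (0.60).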

How the data were processed

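The authors deposited 1 linear intensity per probe set and array, with no statement of software, background correction or scaling in the sources used here. Of 15923 probe sets, 57 controls were removed, leaving 15866. Values under the 10th percentile over all 35 arrays (41.6, the floor) were set to it and log2 values taken, so differences of dim genes are understated. limma 3.58.1 (R 4.3.3) was fitted to the 11 normal arrays (trend and robust options), with Benjamini-Hochberg adjustment over all probe sets and a call at adjusted p under 0.05. A log2 difference is NewN minus the others. Further fits used 3 groups of glands. Array measures were tested by two-sided exact permutation (SciPy 1.17.1).

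Symbols came from the platform annotation: 12783 probe sets had 1 symbol, 312 several and 2771 none. Identifiers of 12748 matched RefSeq (GRCr8), with 0 symbols changed. The brightest probe set stood for each of 10411 genes. Promoter sequences are RefSeq's. Glands were grouped by title alone, but the comparison and the 43 gene lists (931 of 1142 symbols measured) were chosen with earlier results of these data known. Genes named by rule were the 15 largest called differences without overlap in each direction, up to 3 called members per list and a marker panel, 132 in all; the rest were chosen after their values were seen. On simulated arrays of 15866 probe sets for NewN against the others, 18% of changes of 1.25-fold, 46% of 1.5-fold, 68% of 2-fold and 96% of 4-fold were recovered, and 0.0894% of unchanged probe sets were called. Changes were put into 50 probe sets for each fold, all well above the floor, with independent noise and no shift with brightness. The recovery rates thus do not cover dim genes, and neither rate covers a shift of whole arrays. The alternatives covered scaling, floor, dim probe sets, the spread model, covariates and glands left out. The number of arrays limits the precision.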

Additional observations from a re-analysis of the deposited data

Results flagged for a closer look

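Within the 8 NewN glands, 143 genes and array measures were examined for an array standing apart, by the gap to its nearest neighbour as a share of the range of the group. The gap passed the critical value of 0.526 for 26 of them, where chance alone gives about 1 in 20.

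In 20 of the 26 the array apart was NewN6, as the lowest. These were Krt18 (0.807), Cp (0.757), Prickle2 (0.754), Erbb2 (0.732), Ptgs2os (0.699), Prss8 (0.690), Podxl (0.674), Hspa1a (0.653), Perp (0.610), Agrn (0.601), and also Anxa8 (0.598), Bhlhe41 (0.576), Plin1 (0.561), Cebpd (0.559), Myh11 (0.555), Scaf1 (0.544), Krt8 (0.543), Mxi1 (0.535), Trim29 (0.530) and Igfbp2 (0.529). Many are epithelial genes, among them the keratins Krt8 and Krt18. NewN6 is also the gland with the highest T cell and B cell genes (Cd3g 1639, Cd79b 1111). Without NewN6 the luminal genes called higher numbered 17.

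NewN6 was the highest for Ythdf2 (0.593) and Tap2 (0.543), a peptide transporter of antigen presentation. NewN4 was the highest for Kif20a (0.582, signal 65.3 with 50.2 next) and NewN7 for Snrpn (0.618, signal 57.1 with 46.95 next). Values under the floor of 41.6 were set to it before the gap was taken. For Kif20a and Snrpn the lowest NewN value lay at the floor, which narrows the range and raises the share. NewN7 was the lowest for Tk1 (0.634) and NewN8 for Psmc2 (0.686), a proteasome subunit.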

How the results depend on the processing

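Leaving out 1 gland at a time gave 2511 to 3786 called probe sets (1381 to 2091 higher, 1130 to 1695 lower), 1559 to 2445 genes, 9 to 17 luminal, 6 to 10 basal and 5 to 19 mitosis genes, and a 10th percentile difference of -4.86 to -3.99. Of 117 named genes called, 70 were called in all 11 such fits, and most calls were lost without Young (34), X28.1N (31) or X27.1N (27). Centring on the 75th percentile gave 5220 called and 3881 lower. The brightest 2 quartiles gave 1869 called, 476 lower, 1308 genes and 3 mitosis genes. Array weights gave 2056, 761 lower and 1316 genes. All 35 arrays gave 1697 (822 higher, 875 lower), 1047 genes, 5 luminal and 3 basal genes. The Gapdh ratio as covariate gave 1717 (1028 higher, 689 lower), 1108 genes, 5 basal and 4 mitosis genes. Mitosis genes numbered 5 with the muscle covariate, 6 without NewN4, NewN6 and X27.1N, and 5 with Young out, where luminal genes numbered 9. Young alone gave 1845 (869 higher, 976 lower), 1178 genes and 5 basal genes. Rpl14 turned to -0.14 with the mean of its probe sets. Fewer probe sets or arrays enter some of these fits; otherwise the cause was not tested. Of 132 named genes, 23 lost their call after quantile normalization and 0 changed direction. No paired analysis was possible because the groups share no replicate labels that tie glands together.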

Other observations

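Some lists not described above had few calls or calls that moved with scaling. Shares of all genes were 11.6% higher and 8.92% lower, and 9.23% and 8.70% after quantile normalization. Of 28 oxidative phosphorylation genes, 6 were higher and 1 lower in NewN, and after quantile normalization 1 was higher and 3 lower. Of 26 endoplasmic reticulum stress genes, 6 were higher and 1 lower, against 2 and 1 after quantile normalization. Of 25 proteasome genes, 3 were higher and 0 lower, and 0 were called after quantile normalization. Immediate early genes, which mark handling and stimulation of tissue, had 2 higher and 2 lower of 38, and clock genes 1 higher and 0 lower of 15. Of 23 genes of the early duct and terminal end bud, 2 were higher and 4 lower. Milk protein signal was greatest in NewN4 (Csn2, a casein, 2280; Wap, whey acidic protein, 1108).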
